A study of Mus musculus with 6 samples.

Results

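The genes described here are the stearoyl-CoA and fatty acid desaturases of the mouse, the 4 Scd genes Scd1, Scd2, Scd3 and Scd4 and the 4 Fads genes Fads1, Fads2, Fads3 and Fads6. They were taken by gene symbol, and all 8 were present among the 46095 genes of the count table. RNA had been sequenced from induced brown adipocytes, cells of heat-producing fat, in 3 U-IRX3ov libraries and 3 control libraries. All cells came from C57BL/6 mice 5 weeks old and were grown from the stromal vascular fraction of their brown fat, which holds preadipocytes along with vessel and immune cells. Both groups received the same induction of 8 days: a cocktail for 2 days, with insulin at 5 µg/mL, IBMX at 0.5 mM and 1 µM each of the thyroid hormone T3, the PPARγ agonist rosiglitazone and dexamethasone, then insulin, rosiglitazone and T3 alone for 6 days. U-IRX3ov is the labelled genotype of the mice, its library titles read KI, and IRX3 is a homeobox transcription factor. The sources used here do not give its construct, its promoter or the controls' alleles, nor whether libraries of a group came from separate mice or cultures, so p-values measure only the spread between these 6 libraries.

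Stearoyl-CoA desaturases place a double bond at the ninth carbon of saturated fatty acids bound to coenzyme A, turning stearate into oleate and palmitate into palmitoleate, the main monounsaturated acids of fat cell triglyceride. The Fads enzymes act nearer the carboxyl end. FADS2 acts at the sixth carbon and FADS1 at the fifth carbon on the path from dietary linoleic and linolenic acids to arachidonic and eicosapentaenoic acids, and FADS3 acts on the sphingoid bases of ceramides. These enzymes sit in the endoplasmic reticulum, hold their iron with clusters of histidines called histidine boxes, and draw electrons from NADH through cytochrome b5, which FADS1, FADS2 and FADS3 carry as a domain of their own.

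The coding sequence around the last histidine box is shown for each gene because it separates the families and shows how close the Scd copies are. The stretches are from GENCODE transcripts of GRCm38, the assembly of mm10, 45 bases each, 5′ to 3′ on the gene's own strand. Capitals mark the codons of the box, histidine, any 2 codons and a histidine pair in the Scd genes and Fads6, with glutamine in the opening place in Fads1, Fads2 and Fads3.
Scd1: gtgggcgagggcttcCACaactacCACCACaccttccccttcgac
Scd2: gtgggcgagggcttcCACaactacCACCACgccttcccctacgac
Scd3: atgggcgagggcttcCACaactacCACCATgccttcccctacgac
Scd4: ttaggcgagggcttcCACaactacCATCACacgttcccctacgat
Fads1: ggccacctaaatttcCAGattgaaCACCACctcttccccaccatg
Fads2: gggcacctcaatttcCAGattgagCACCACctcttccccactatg
Fads3: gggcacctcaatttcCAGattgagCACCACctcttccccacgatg
Fads6: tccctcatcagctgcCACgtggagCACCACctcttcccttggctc

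Over these 45 bases Scd1 and Scd2 differed at 2 positions and Fads2 and Fads3 at 1 position, while Scd1 and Fads1 differed at 22. Each Scd stretch spans an intron, as do those of Fads1, Fads2 and Fads3, and that of Fads6 lies in 1 exon (chr11:115284221-115284265, minus strand). The glutamine form of the box was found in frame in Fads1, Fads2 and Fads3 and in 2.16% of 21564 mouse coding genes. Along the whole coding sequence Scd1 was 90.3% identical to Scd2, 91.5% to Scd3 and 84.6% to Scd4, whereas Fads1 and Fads2 were 67.0% identical.

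The haem-binding codons of the cytochrome b5 domain, histidine, proline and a glycine pair, set Fads1, Fads2 and Fads3 apart from the other members. They occurred in frame in Fads1, Fads2 and Fads3, in none of the Scd genes or Fads6, and in 0.454% of mouse coding genes. They are given here in capitals within 42 bases, at chr19:10183199-10183240 (plus strand) in Fads1, chr19:10101247-10101288 (minus strand) in Fads2 and chr19:10041891-10041932 (plus strand) in Fads3.
Fads1: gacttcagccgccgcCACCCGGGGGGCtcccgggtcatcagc
Fads2: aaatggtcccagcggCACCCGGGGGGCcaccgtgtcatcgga
Fads3: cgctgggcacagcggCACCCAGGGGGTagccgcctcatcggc

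The 4 Scd genes lie together on chromosome 19 of mm10, Scd3 at 44203269 to 44244016, Scd2 at 44293674 to 44306864 and Scd4 at 44333092 to 44346743 on the plus strand, and Scd1 at 44394455 to 44407879 on the minus strand. Fads3 (10041569 to 10060110, plus strand), Fads2 (10062765 to 10101746, minus strand) and Fads1 (10182888 to 10196877, plus strand) form a second cluster on that chromosome, and Fads6 lies on chromosome 11 at 115279622 to 115297663 (minus strand). The Scd copies share stretches of sequence, so their counts depend in part on how the authors' counting treated reads that match several genes, which the sources used here do not give. Of all 50-base windows of the main transcript, 4.66% in Scd1, 4.01% in Scd2, 6.69% in Scd3 and 6.32% in Scd4 also occurred in a transcript of another gene. Windows found in another of the 8 members made up 4.66%, 3.79%, 6.37% and 3.44%, in the same order. At 100 bases the shares found in any other gene were 2.66%, 0.896%, 2.54% and 0.530%. Fads1 and Fads6 had no shared window at 50 bases, and Fads2 and Fads3 shared 5 windows with each other. Scd3 also overlaps the antisense gene AC125101.1, and Scd2 and Fads1 each hold a microRNA gene on their own strand.

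Library totals were 26755870, 20094799 and 20217212 counts in U-IRX3ov and 26573164, 25371093 and 25982372 in control libraries. Irx3 had 163, 123 and 114 counts in U-IRX3ov and 131, 142 and 138 in control libraries. Levels in CPM are counts scaled to 1e6 per library after TMM factors, which balance composition between libraries. On this scale Irx3 was at 6.27, 6.31 and 5.89 CPM in U-IRX3ov and 4.78, 5.42 and 5.12 CPM in control libraries. All U-IRX3ov values lay above all control values, an order found in 24.9% of all genes tested. The log2 fold change of 0.27 ± 0.13 (SE) did not pass the test (edgeR adjusted p = 0.112). Whether construct reads fall under this symbol is not known. All 10 brown adipocyte markers listed rose. Their summed level was 1216 to 1353 CPM in U-IRX3ov and 463 to 465 CPM in control libraries. Prdm16 missed the threshold when scaled by library totals alone. Of 14757 genes tested 2978 rose and 3120 fell at an adjusted p under 0.05, 41.3% in all. Scaled by library totals alone, without the TMM factors that balance composition, 1935 rose and 4670 fell and the median of all genes moved to -0.10 on the log2 scale, against -0.00473 in the fit reported here.

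Scd1, Scd2 and Scd3 rose strongly in U-IRX3ov cells, Fads1 and Fads2 rose modestly, Scd4 passed the threshold only narrowly, and Fads3 and Fads6 did not pass. Thus 6 of 8 members rose and 0 fell, against 20.2% of all genes tested that rose and 21.1% that fell. The median log2 fold change of the 8 members was 0.62. Scd3 (219 to 490 counts per library) and Scd4 (8 to 34) share sequence with the far more abundant Scd1 (360193 to 767752). Whether reads from Scd1 contribute to the Scd3 and Scd4 counts, and so to their changes, was not tested. When the test asked for a change beyond 1.5-fold, Scd1, Scd2 and Scd3 passed, among the 1.88% of all genes that were higher by that rule; 2.74% were lower. Together the 8 genes took 3.37% ± 0.15 of all counts in U-IRX3ov libraries and 1.66% ± 0.04 in control libraries (SD, n = 3 each). The values by library were 3.21%, 3.41% and 3.50% in U-IRX3ov and 1.67%, 1.69% and 1.62% in control, with no overlap (exact permutation test, two-sided p = 0.1, the smallest that 3 against 3 allows).

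**Figure D1:**
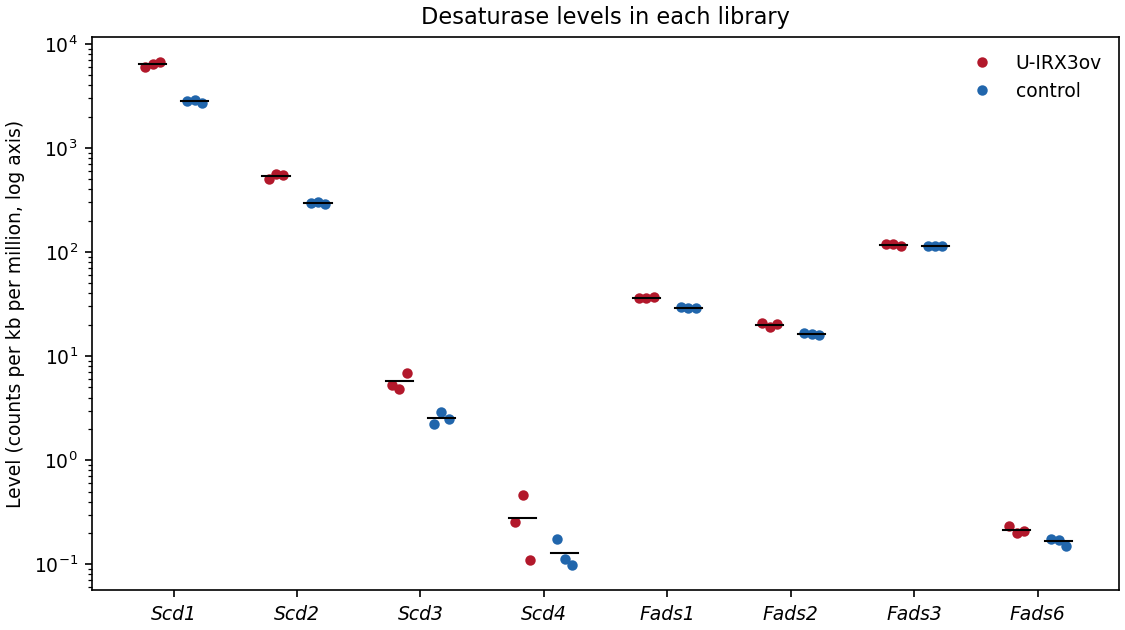
Level of each desaturase in each library, as CPM per kilobase of exon (log axis); points are libraries, U-IRX3ov left of control, and lines are group means. Scd1 lies highest in both groups, and the U-IRX3ov points of Scd1, Scd2, Scd3, Fads1, Fads2 and Fads6 lie above the control points. That order was found in 24.9% of all genes tested.

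Scd1, the main desaturase of adipose tissue and liver, ranked second among all genes in each of the 6 libraries, behind the mitochondrial mRNA COX1. It had 767752, 611913 and 635404 counts in U-IRX3ov and 380265, 369825 and 360193 in control libraries. On the CPM scale, with TMM, this was 29523, 31404 and 32818 CPM in U-IRX3ov and 13885, 14127 and 13367 CPM in control libraries. The groups were far apart, with U-IRX3ov replicate 1 the lowest of its group. The fold change was 2.27 (95% interval 2.14 to 2.40, log2 1.18 ± 0.04 SE, edgeR adjusted p = 1.28e-18), and 98.6% of all genes tested had a lower log2 fold change. Scd1 alone took 2.87%, 3.05% and 3.14% of all counts in U-IRX3ov libraries and 1.43%, 1.46% and 1.39% in control libraries.

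Scd2, the copy best known from brain and from preadipocytes, rose less than Scd1. It measured 2744, 3085 and 3034 CPM in U-IRX3ov and 1631, 1663 and 1577 CPM in control libraries, again without overlap. This was a 1.82-fold rise (95% interval 1.72 to 1.93, log2 0.86 ± 0.04, adjusted p = 3.24e-15). Its rank among all genes was 21, 18 and 19 in the U-IRX3ov libraries and 39, 37 and 39 in the control libraries.

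The ratio of Scd1 to Scd2, which does not depend on scaling, was higher in U-IRX3ov cells. In counts per kilobase it was 12.02, 11.37 and 12.08 in U-IRX3ov and 9.51, 9.49 and 9.47 in control libraries. The control values almost coincided and all 3 U-IRX3ov values lay above them. The log2 ratio differed by 0.32 (exact permutation p = 0.1, the smallest possible; adjusted p = 0.15 over 6 within-library comparisons). Scd1 made up 92.1% ± 0.24 of the summed Scd level per kilobase in U-IRX3ov and 90.4% ± 0.02 in control cells, and Scd2 7.80% ± 0.24 and 9.53% ± 0.02 (SD, n = 3 each).

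Scd3, known in mouse mainly from skin and its sebaceous glands, was present at a small fraction of the Scd1 level. It had 490, 337 and 478 counts in U-IRX3ov and 219, 269 and 238 in control libraries, or 18.8, 17.3 and 24.7 CPM against 8.00, 10.3 and 8.83 CPM. All U-IRX3ov values lay above all control values. The rise was 2.24-fold (95% interval 1.86 to 2.70, log2 1.16 ± 0.13, adjusted p = 1.03e-06). Per kilobase the ratio of Scd3 to Scd1 was 8.79e-04, 7.58e-04 and 0.00104 in U-IRX3ov and 7.93e-04, 0.00100 and 9.10e-04 in control libraries. These ratios overlapped between the groups (difference of -0.02 on the log2 scale, exact permutation p = 0.8; a ratio added after the values were seen). Whether shared reads contribute to the Scd3 counts was not tested.

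Scd4, known in mouse from heart, was close to the limit of detection. Its counts were 25, 34 and 8 in U-IRX3ov and 18, 11 and 10 in control libraries. U-IRX3ov replicate 3 lay below every control count, and in CPM the groups overlapped. The fold change of 2.13 had a wide interval (95% interval 1.14 to 3.99, log2 1.09 ± 0.44) and an adjusted p of 0.0488 in edgeR. That call was lost under DESeq2 (adjusted p = 0.0872) and limma-voom (adjusted p = 0.131), and it held in 2 of 6 fits that left out 1 library. Without U-IRX3ov replicate 2 the log2 fold change was 0.55 (adjusted p = 0.420).

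**Figure D2:**
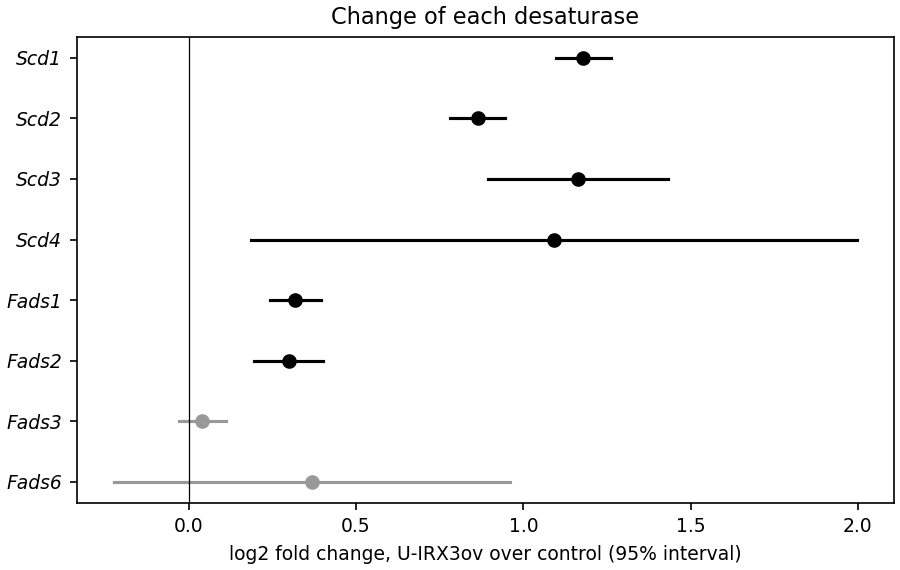
Change of each desaturase as a log2 fold change of U-IRX3ov over control, with its 95% interval from the edgeR fit; black marks an adjusted p under 0.05 and grey marks members that did not pass. Scd1 and Scd3 lie near 1.2, Fads1 and Fads2 near 0.3 and Fads3 at 0.04, and Scd4 and Fads6 have the widest intervals.

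Fads1 and Fads2, the desaturases of polyunsaturated fatty acid synthesis, rose by similar and modest amounts. Fads1 measured 172, 173 and 178 CPM in U-IRX3ov and 141, 139 and 140 CPM in control libraries. The groups did not overlap, and the rise was 1.25-fold (95% interval 1.18 to 1.31, log2 0.32 ± 0.04, adjusted p = 6.13e-08). Fads2 measured 68.1, 63.1 and 66.5 CPM in U-IRX3ov and 54.8, 53.2 and 52.8 CPM in control libraries. Its rise was 1.23-fold (95% interval 1.15 to 1.32, log2 0.30 ± 0.05, adjusted p = 1.89e-05), also without overlap. Such an order, with U-IRX3ov above control, was found in 24.9% of all genes tested. The within-library ratio of Fads1 to Fads2 was 1.73, 1.88 and 1.84 in U-IRX3ov and 1.77, 1.79 and 1.81 in control libraries, values that overlapped (log2 difference 0.02, exact permutation p = 0.6).

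Fads3, the sphingoid base desaturase, had the highest level of the Fads genes and did not pass the test. It measured 453, 454 and 432 CPM in U-IRX3ov and 437, 432 and 433 CPM in control libraries. The groups overlapped, and the 95% interval of the fold change ran from 0.980 to 1.08 (log2 0.04 ± 0.03, adjusted p = 0.364). Scaled by library totals alone its log2 fold change was -0.0550 (adjusted p = 0.211), so its sign depends on the scaling. The ratio of Fads3 to Fads1 was 3.34, 3.32 and 3.07 in U-IRX3ov and 3.92, 3.94 and 3.93 in control libraries, lower in every U-IRX3ov library (log2 difference -0.28, exact permutation p = 0.1, the smallest possible; a ratio added after the values were seen). Fads3 made up 67.6% ± 0.96 of the summed Fads level per kilobase in U-IRX3ov and 71.5% ± 0.14 in control cells.

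Fads6, a member of the family without the cytochrome b5 codons shown above, had 40, 26 and 27 counts in U-IRX3ov and 32, 30 and 27 in control libraries. In CPM all 3 U-IRX3ov values (1.54, 1.33 and 1.39) lay above all 3 control values (1.17, 1.15 and 1.00), an order found in 24.9% of all genes tested. The log2 fold change of 0.37 ± 0.29 did not pass (adjusted p = 0.330), with an interval from 0.856 to 1.94-fold, so neither a rise nor a fall was detectable at this depth.

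Per kilobase the order of levels was the same in both groups for the 6 more abundant members. In CPM per kilobase, U-IRX3ov cells had 6388 ± 338 for Scd1, 541 ± 33.7 for Scd2, 118 ± 3.23 for Fads3, 36.3 ± 0.67 for Fads1 and 5.71 ± 1.10 for Scd3 (SD, n = 3), and Fads2 lay between the last pair at 20.7, 19.2 and 20.2. Control cells had 2820 ± 79.4 for Scd1, 297 ± 7.96 for Scd2, 114 ± 0.62 for Fads3, 29.1 ± 0.24 for Fads1, 16.3 ± 0.32 for Fads2 and 2.54 ± 0.32 for Scd3 on the same scale. Neighbours in this order were separated by more than their spread in each group. Scd4 and Fads6 were lowest, at 0.276 ± 0.178 and 0.214 ± 0.016 in U-IRX3ov cells and 0.128 ± 0.041 and 0.166 ± 0.014 in control cells, and these levels could not be told apart. The summed Scd level was 37.1, 39.9 and 42.4 times the summed Fads level in U-IRX3ov and 19.5, 20.1 and 19.0 times in control libraries (log2 difference 1.03, exact permutation p = 0.1, the smallest possible).

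**Figure D3:**
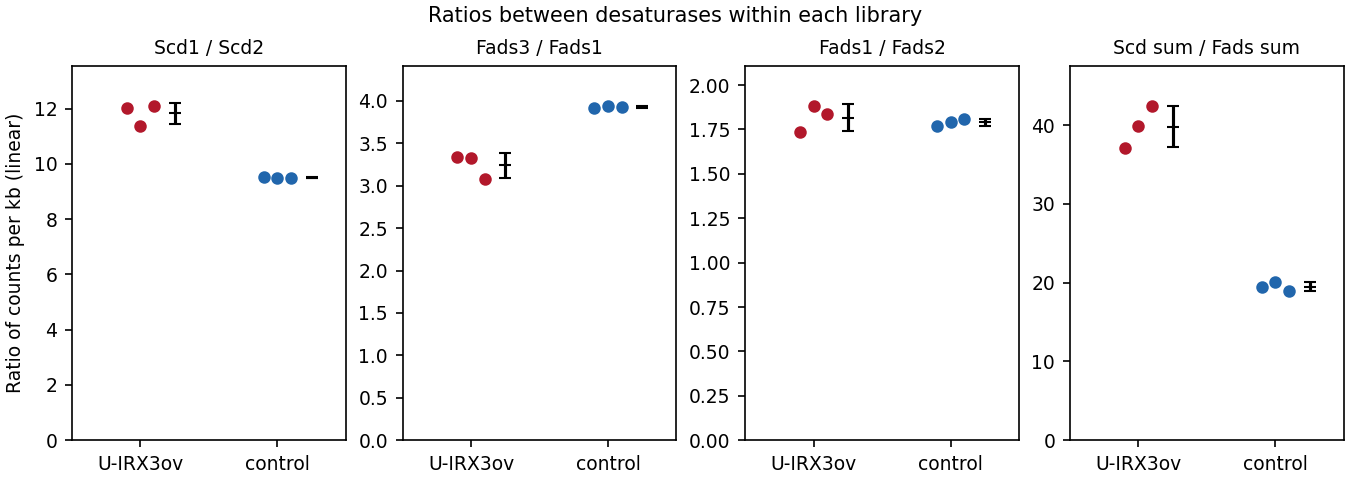
Ratios of counts per kilobase within each library, on linear axes from 0; points are libraries and bars are the mean and SD of each group (n = 3). The ratios of Scd1 to Scd2 and of summed Scd to summed Fads are higher in U-IRX3ov, that of Fads3 to Fads1 is lower, and those of Fads1 to Fads2 overlap.

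RefSeq promoter windows, 250 bases before to 50 after the start, were at hand for 5 of the 8 members, Scd3, Scd4, Fads2, Fads3 and Fads6 (build GRCm38.p6). Those of Scd3, which rose, and Fads3, which did not pass, are printed as examples picked after the values were seen, so their difference in sequence says nothing of their difference in change. The Scd3 window is chr19:44203038-44203337 and the Fads3 window chr19:10041298-10041597, both on the plus strand, with CCAAT boxes on either strand in capitals.
Scd3: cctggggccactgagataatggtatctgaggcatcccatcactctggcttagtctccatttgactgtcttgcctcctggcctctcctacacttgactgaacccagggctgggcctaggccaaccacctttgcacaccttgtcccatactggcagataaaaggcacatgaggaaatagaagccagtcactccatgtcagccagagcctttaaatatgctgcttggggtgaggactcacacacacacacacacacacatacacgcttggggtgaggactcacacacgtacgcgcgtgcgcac
Fads3: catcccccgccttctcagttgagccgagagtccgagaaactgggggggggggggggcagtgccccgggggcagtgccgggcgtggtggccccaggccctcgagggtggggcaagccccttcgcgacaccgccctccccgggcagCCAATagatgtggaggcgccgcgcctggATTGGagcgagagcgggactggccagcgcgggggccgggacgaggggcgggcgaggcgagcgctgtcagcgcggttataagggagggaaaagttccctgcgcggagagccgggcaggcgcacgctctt

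The motif CCAAT, the core bound by NF-Y, was found 2 times in the Fads3 window, 1 on each strand, and 0 times in those of Scd3, Scd4, Fads2 and Fads6. It occurs in 37.4% of all 32851 promoter windows. The motifs TATAAA (13.6% of windows), CACGTG (7.15%) and TCACNCCAC, a form of the sterol regulatory element (1.24%), were searched on both strands and were in none of the 5 windows.

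Genes that feed the desaturases with saturated fatty acids rose in the same libraries. Of 9 tested members 8 rose and 0 fell, against 20.2% and 21.1% of all genes tested. The median log2 fold change was 0.66, against -0.00473 for all genes tested. Fatty acid synthase Fasn measured 5762, 5954 and 5737 CPM in U-IRX3ov and 3569, 3625 and 3441 CPM in control libraries (log2 0.71 ± 0.03). The acetyl-CoA carboxylase Acacb (1.01 ± 0.04), the lipogenic regulator Thrsp (1.25 ± 0.04) and ATP citrate lyase Acly (0.70 ± 0.03) had the other smallest p-values. The citrate carrier Slc25a1 (0.66 ± 0.29, adjusted p = 0.0657) was at 23 to 39 counts and did not pass; it is named as the exception, after its value was seen.

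Of 7 tested electron donors of the desaturases 1 rose and 2 fell, close to the shares of all genes tested (20.2% higher and 21.1% lower), with a median log2 fold change of -0.01. The difference from the supply genes was not tested. The cytochrome b5 reductase Cyb5r3, which passes electrons from NADH, fell to 369 CPM in U-IRX3ov, against 409 CPM in control cells (log2 -0.15 ± 0.04, adjusted p = 0.00127). Cytochrome b5 itself, Cyb5a, fell to 135 CPM in U-IRX3ov, against 152 CPM in control cells (log2 -0.17 ± 0.05, adjusted p = 0.0133). The outer mitochondrial membrane form Cyb5b rose (0.13 ± 0.03, adjusted p = 0.00228), but not when scaled by library totals alone (0.04, adjusted p = 0.412).

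Elongation enzymes, which act before and after desaturation, moved both ways. Of 12 tested, 5 rose and 3 fell, against 20.2% and 21.1% of all genes tested, with a median of 0.06. Elovl6, which makes stearate from palmitate for Scd1, measured 17.6, 20.3 and 19.9 CPM in U-IRX3ov and 19.1, 18.8 and 17.03 CPM in control libraries. These values overlapped (log2 0.07 ± 0.08, adjusted p = 0.532), and the sign turned to -0.03 when scaled by library totals alone. Elovl3 (0.64 ± 0.04), an elongase of brown fat and skin that is also among the brown adipocyte markers, and Elovl5 (0.27 ± 0.04), which elongates the products of FADS2, rose, as did the reductases Tecr (0.37 ± 0.04) and Hsd17b12 (0.30 ± 0.04). The 3 that fell were Hacd4 (-0.52 ± 0.08), the very long chain elongases Elovl4 (-0.78 ± 0.12) and Elovl1 (-0.14 ± 0.05). With scaling by library totals alone Hacd2 fell as well (-0.16, edgeR adjusted p = 0.0101).

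Regulators of desaturase transcription rose more often than they fell, 11 against 3 of 21 tested, with a median of 0.16. Of all genes tested 20.2% rose and 21.1% fell. The carbohydrate-responsive factor Mlxipl measured 150, 140 and 147 CPM in U-IRX3ov and 77.7, 79.6 and 79.0 CPM in control libraries (log2 0.89 ± 0.04). The sterol and insulin responsive factor Srebf1 (0.35 ± 0.03), its retention protein Insig1 (0.30 ± 0.03), Ppara (1.44 ± 0.05) and Pparg (0.61 ± 0.04) rose as well. The 3 that fell were the SREBP protease Mbtps1 (-0.15 ± 0.04), the thyroid hormone receptor Thra (-0.23 ± 0.07) and Rxra (-0.12 ± 0.04), each named since so few fell. With scaling by library totals alone 8 rose and 6 fell.

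Other enzymes of the same membrane oxygenase fold had 1 of 5 tested members higher and 2 lower (median -0.05), against 20.2% and 21.1% of all genes tested. Scaled by library totals alone, Msmo1 of this list fell as well (-0.15, edgeR adjusted p = 0.0109). The sphingolipid desaturase Degs1 fell (-0.33 ± 0.04), as did the cholesterol hydroxylase Ch25h (-0.95 ± 0.11), and the sterol desaturase Sc5d rose (0.29 ± 0.04). Among 10 tested genes that use monounsaturated acyl-CoA for triglyceride and ester synthesis 7 rose and 1 fell (median 0.24). Of all genes tested 20.2% rose and 21.1% fell. With scaling by library totals alone Acsl5 of this list did not pass (0.04, edgeR adjusted p = 0.499) and Gpat3 fell (-0.16, adjusted p = 0.00905). Lpin1 (0.76 ± 0.04), Agpat2 (0.48 ± 0.03), Dgat1 (0.42 ± 0.04) and Gpam (0.36 ± 0.04), enzymes of glycerolipid synthesis, rose, and the cholesterol esterifying Soat1 fell (-0.37 ± 0.06).

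Among genes that handle polyunsaturated fatty acids 8 of 14 tested rose and 3 fell (median 0.16), against 20.2% and 21.1% of all genes tested. Scaled by library totals alone, 4 were higher and 3 lower. Decr1 (0.61 ± 0.03) and Eci1 (0.67 ± 0.04), which prepare unsaturated acids for oxidation, and the fatty acid binding protein Fabp5 (0.51 ± 0.05) rose. Lpcat3, which places polyunsaturated acids in phospholipids, had 0.15 ± 0.03 (adjusted p = 4.51e-04), and 0.06 when scaled by library totals alone (adjusted p = 0.169). The 3 that fell were the cyclooxygenase Ptgs1 (-0.62 ± 0.09), the phospholipase Pla2g4a (-0.32 ± 0.11) and the leukocyte lipoxygenase Alox5, with 0, 2 and 1 counts in U-IRX3ov and 12, 21 and 34 in control libraries.

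**Figure D4:**
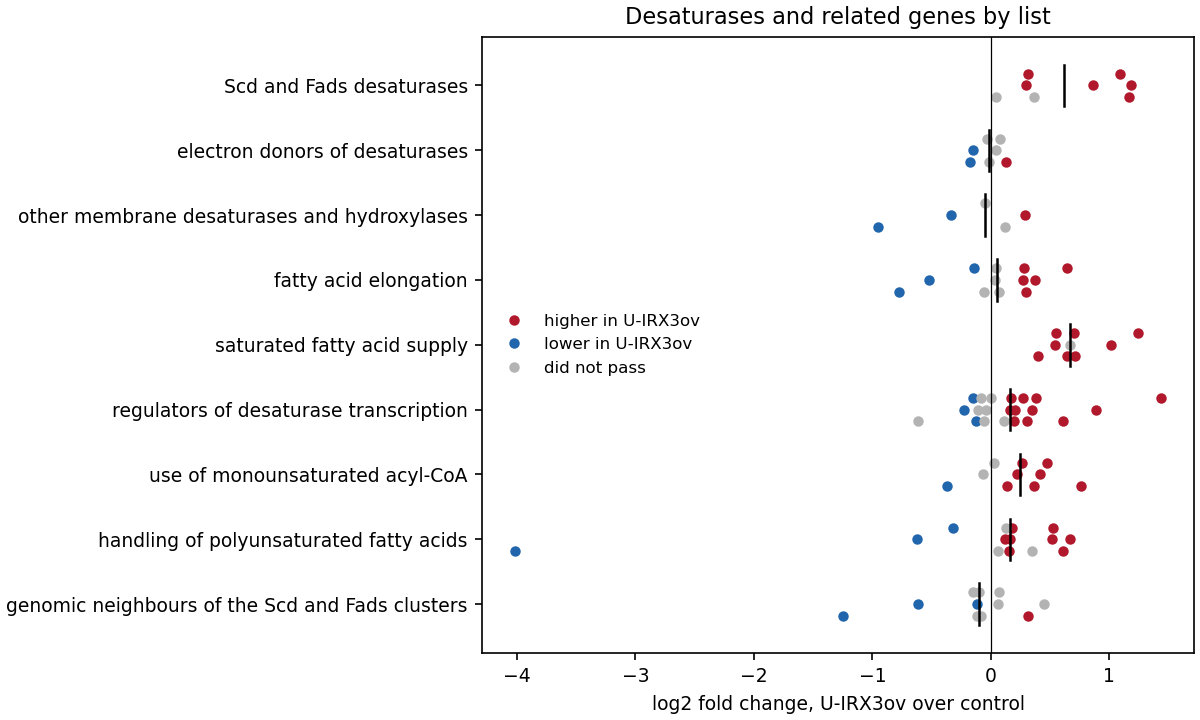
Log2 fold change of U-IRX3ov over control for each tested gene of the desaturases and of 8 related lists; points are genes, coloured by whether they passed an adjusted p of 0.05, and black lines are list medians. The medians of the desaturases and of saturated fatty acid supply lie near 0.6, and those of the electron donors and elongation genes lie near 0.

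Of 11 tested genes listed as neighbours of the desaturases, up to 155 kilobases away, 1 rose and 3 fell (median -0.10). These counts were close to the shares of all genes tested (20.2% higher and 21.1% lower). The difference from the desaturases was not tested. Fen1 (-0.15 ± 0.09) and Tmem258 (0.06 ± 0.08), the nearest genes to Fads1 and named after their values were seen, did not pass. Scaled by library totals alone, Fen1 fell (-0.24, edgeR adjusted p = 0.0384), as did Fdxr (-0.22, adjusted p = 0.0489), and Tmem258 was at -0.03. Rab3il1, 3.19 kilobases from Fads3, fell (-1.24 ± 0.13), as did Myrf (-0.61 ± 0.12) and the ferritin chain Fth1 (-0.12 ± 0.04), and Dagla rose (0.31 ± 0.07).

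The genes whose pattern over the 6 libraries was closest to that of a desaturase were found by the root-mean-square difference in log2 CPM, centred on the control mean, over 8986 other genes with a mean of at least 10 CPM. For Scd1 they were the phosphatase Phospho1 (difference 0.03), the hexokinase Hk2 (0.04), Elmod2 (0.04), the thiolase Acaa2 (0.04) and the lipid hydrolase Pnpla3 (0.06). Those closest to Scd2 were Pgam1, Ogdh, Hadhb, Ldhb and Gm13910 (0.04 to 0.05). For Scd3 they were Fmo1, Bnip3, Scd1, Acaa2 and Phospho1 (0.14 to 0.17). Fads1 lay closest to Lonp2, Trib1, Gramd1b, Suclg2 and Pnpla8 (0.02 each), and Fads2 to Tmx2, G6pdx, Bscl2, Sc5d and Apeh (0.02 to 0.03). Fads3 lay closest to Tbc1d23, Gse1, Rbsn, Clasp1 and Rapgef1 (0.01 each). Centred in this way, the measure picks genes with nearly the same log2 fold change. These were 1.11 to 1.19 for the genes closest to Scd1 and 0.04 to 0.06 for those closest to Fads3. The size of the difference should not be compared between members.

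Markers of cell types that could be in the cultures moved too, and in bulk RNA fewer cells of a type and less RNA per cell cannot be told apart. The counts of markers stand against 20.2% of all genes tested that rose and 21.1% that fell. General adipocyte markers rose in 9 of 10 and their summed level was 45358 to 47120 CPM in U-IRX3ov and 35425 to 36361 CPM in control libraries, with a median log2 fold change of 0.21; scaled by library totals alone 4 of the 9, Adipoq, Cebpa, Cd36 and Cidec, missed the threshold. Among preadipocyte and fibroblast markers 11 of 12 tested fell (4154 to 4500 CPM in U-IRX3ov, 6916 to 7082 CPM in control, median -0.72), and all 12 leukocyte markers fell (159 to 235 CPM in U-IRX3ov, 489 to 599 CPM in control). Of 8 markers of pericytes and smooth muscle 6 fell and 2 rose (3667 to 3998 CPM in U-IRX3ov, 5880 to 6123 CPM in control), and endothelial markers rose in 4 of 7 tested (59.8 to 63.4 CPM in U-IRX3ov, 39.1 to 42.5 CPM in control, Cldn5 at 0). Schwann cell markers rose in 4 of 6 tested and fell in 1, at summed levels of 48.0 to 50.1 CPM in U-IRX3ov and 35.1 to 40.2 CPM in control libraries. Mag, too low to be tested, had 1, 0 and 0 counts in U-IRX3ov and 6 in each control library. Of 8 sebaceous and epithelial markers 2 were tested, Krt79 (1.03 ± 0.19) and Mc5r (0.64 ± 0.17), and both rose. Summed levels of the list were 7.75 to 9.19 CPM in U-IRX3ov and 4.601 to 5.34 CPM in control libraries. Krt18, too low to be tested, had 0 counts in each U-IRX3ov library and 3, 4 and 5 in control libraries. Krt5, Krt8, Epcam and Cdh1 had 3 or fewer counts in any library, and Krt14 was at 0 in every library. The part of these shifts in the desaturase results was not tested.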

How the data were processed

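The authors deposited raw counts per gene symbol for 6 libraries. Alignment used HISAT2 2.0.4 and the mm10 genome, per the submitters' processing notes. How reads were counted, with which annotation and strand setting, the sources used here do not say. Samples were grouped by title and genotype. Of 46095 rows 24947 had a count in a library and 14757 passed filterByExpr, all 8 desaturases among them. The main test was the robust quasi-likelihood test of edgeR 4.0.16 (R 4.3.3) on TMM-scaled counts, comparing the groups with no covariate. P-values were adjusted over all genes tested (Benjamini-Hochberg). SE comes from the log2 fold change and F, and 95% intervals use the test's degrees of freedom. The exact tests of within-library values are two-sided. Levels per kilobase use the union of GENCODE exons. DESeq2 1.42.0 and limma 3.58.1 served as alternatives, and the procedure was tested on simulated data. Members and gene lists were chosen with earlier results of these data known. Named genes are the members, 8 set genes, up to 4 called genes with the smallest p per list and any opposite to their list. Some genes that this rule names are not reported here. Of the genes listed, Gpat3 matched by an older symbol and Faxdc2 matched no row. Chi-square per degree of freedom between replicate libraries was 2.92 to 4.91, more than counting noise alone. Intervals cover this spread or counting error only.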

Additional observations from a re-analysis of the deposited data

How the results depend on the processing

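Scd1, Scd2 and Scd3 kept their rise in all 16 alternatives, with log2 fold changes of 1.08 to 1.22, 0.77 to 0.92 and 1.01 to 1.26, and Fads1 (0.22 to 0.33) and Fads2 (0.20 to 0.33) in 15. Against a 1.5-fold change Fads1 (0.32) and Fads2 (0.30) did not pass, the desaturases called fell to 3, all genes to 277 higher and 405 lower, and genes of the 8 related lists to 7 higher and 3 lower, against 42 and 17. The Scd4 call was lost with a log2 fold change of 1.07 under upper-quartile scaling, 1.11 under DESeq2, 0.91 under limma-voom, 1.09 at an adjusted p of 0.01 and against 1.5-fold, 1.01 with the replicate block and 1.00 with scaling by library totals; it ran from 0.55 to 1.45 with 1 library left out, and too few counts left it untested at a minimum of 5 CPM. With scaling by library totals, chosen after seeing the data, Fads3 turned to -0.0550 and 1935 genes rose in all; the cause was not tested. The desaturases' share of counts differed by 1.89 percentage points with mitochondrial mRNAs left out of the total, against 1.71. Same-numbered libraries had correlations of 0.02, 0.08 and 0.05 in their deviations from group means, each the highest for its library, so the numbers only hint at pairing; with the replicate block 3014 genes rose and 3159 fell, and no desaturase other than Scd4 changed its call. Counts of 40 or fewer per library limit Scd4 and Fads6.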
